A study of Mus musculus with 12 samples.

Results

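A set of 10 genes of the fetal and hypertrophy program of the heart was followed through the libraries: the myosin heavy chains Myh6 and Myh7, the α-actins Actc1 and Acta1, the natriuretic peptide gene Nppb, the stretch-regulated sarcomere genes Ankrd1, Xirp2 and Fhl1, and the signalling readouts Ccn2 and Rcan1. The 10 genes were picked by name, with earlier results of these data known. They were matched to identifiers with the GENCODE M21 annotation of GRCm38, out of 55335 genes counted. All 10 passed the filter on low counts. The study fed male mice, 7 to 8 weeks old at the start, for 7 weeks and sequenced RNA of their cardiomyocytes. Wild-type C57BL/6J mice on standard chow (WT_CD, 3 libraries) or on a Western diet rich in fat with 0.21% cholesterol (WT_HFD, 2 of 3 libraries used) stood beside ApoE KO mice, of the line B6.129P2-Apoe tm1Unc/J, on the same 2 diets (ApoeKO_CD and ApoeKO_HFD, 3 libraries each). The allele is a germline knockout, so it is not restricted to cardiomyocytes. The series concerns a mouse model of the form of heart failure in which ejection fraction is preserved.

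The adult mouse ventricle runs almost entirely on the fast α-myosin heavy chain of Myh6 and the cardiac α-actin of Actc1. In the embryonic heart, and again in the adult heart under pressure load or neurohumoral drive, the slow β-myosin heavy chain of Myh7, the skeletal α-actin of Acta1 and the natriuretic peptides are raised, a pattern known as the fetal gene program. Ankrd1, Xirp2 and Fhl1 encode proteins of the Z-disc, intercalated disc and titin spring that respond to stretch. Ccn2 is a target of YAP and TEAD and of TGF-β signalling, and Rcan1 is a target and inhibitor of the calcineurin–NFAT pathway.

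The other genes lie apart in GRCm38: the α-actin genes Actc1 (ENSMUSG00000068614) at chr2:114047282-114053548 on the minus strand and Acta1 (ENSMUSG00000031972) at chr8:123891769-123894751 on the minus strand. The peptide gene was Nppb (ENSMUSG00000029019) at chr4:147985788-147987205 on the plus strand. The stretch genes were Ankrd1 (ENSMUSG00000024803) at chr19:36111961-36120099 on the minus strand, Xirp2 (ENSMUSG00000027022) at chr2:67446002-67526614 on the plus strand and Fhl1 (ENSMUSG00000023092) at chrX:56731787-56793346 on the plus strand. The signalling readouts were Ccn2 (ENSMUSG00000019997) at chr10:24595442-24598683 on the plus strand and Rcan1 (ENSMUSG00000022951) at chr16:92391953-92470867 on the minus strand.

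The 2 myosin heavy chain genes lie head to tail on the minus strand of chromosome 14 (GRCm38). Myh6 (ENSMUSG00000040752) spans 54941921 to 54966927 and Myh7 (ENSMUSG00000053093) spans 54970684 to 54994626. Each carries a microRNA in an intron. Another microRNA of the family lies in Myh7b, on chromosome 2. The mature sequences from RefSeq (GRCm38.p6) are shown 5′ to 3′ because they set out how the loci are related, with the seed, bases 2 to 8, in capitals.
mmu-miR-208a-3p, in Myh6, chr14:54949072-54949093, minus strand: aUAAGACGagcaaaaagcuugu
mmu-miR-208b-3p, in Myh7, chr14:54975710-54975731, minus strand: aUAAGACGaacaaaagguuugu
mmu-miR-499-5p, in Myh7b, chr2:155622893-155622913, plus strand: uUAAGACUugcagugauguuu
The microRNAs of Myh6 and Myh7 have the same seed, UAAGACG, while the one of Myh7b has UAAGACU. The libraries do not measure mature microRNAs. Counts assigned to the gene records of the hairpins were 47 to 127 per library for Mir208a and 0 to 4 for Mir208b, and they cannot be told apart from intron RNA of the host genes.

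The coding sequences of the myosins share long identical stretches, which bears on how well short reads separate them. Of the 50-base windows of the Myh7 coding sequence 23.9% occur unchanged in that of Myh6. The longest shared run has 245 bases, at coding positions 4240 to 4484 of Myh7 and 4246 to 4490 of Myh6, in the part that encodes the rod. It is shown from the GENCODE M21 transcripts, in the coding direction and in lower case throughout.
Myh7 and Myh6 longest shared stretch: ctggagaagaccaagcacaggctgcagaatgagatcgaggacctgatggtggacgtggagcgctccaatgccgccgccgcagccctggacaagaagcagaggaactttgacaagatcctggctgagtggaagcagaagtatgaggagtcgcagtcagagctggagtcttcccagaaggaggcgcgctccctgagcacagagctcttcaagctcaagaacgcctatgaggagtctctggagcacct
A read that lies within such a run matches both genes, and how the authors' counting assigned it is not given in the sources used here. The α-actins Acta1 and Actc1 share no 50-base window of their coding sequences, and their longest identical run has 29 bases.

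Myh7 and Acta1 varied most among the 10 genes, so the 250 bases before a start of each are shown (RefSeq, GRCm38.p6, minus strand, 5′ to 3′). Promoter entries were matched for 9 of the 10 genes. Myh7 has another entry, chr14:54994550-54994799, which is not shown. It overlaps the one shown and holds no GGAATG. Capitals mark the MCAT motif GGAATG, which TEAD factors bind, on either strand, the CArG box of serum response factor, and the TATA motif TATAAA.
Myh7, chr14:54994627-54994876: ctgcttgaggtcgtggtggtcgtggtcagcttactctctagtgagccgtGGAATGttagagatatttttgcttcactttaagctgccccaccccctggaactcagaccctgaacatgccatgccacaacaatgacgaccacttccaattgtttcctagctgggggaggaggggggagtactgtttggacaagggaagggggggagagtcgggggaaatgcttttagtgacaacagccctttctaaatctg
Acta1, chr8:123894776-123895025: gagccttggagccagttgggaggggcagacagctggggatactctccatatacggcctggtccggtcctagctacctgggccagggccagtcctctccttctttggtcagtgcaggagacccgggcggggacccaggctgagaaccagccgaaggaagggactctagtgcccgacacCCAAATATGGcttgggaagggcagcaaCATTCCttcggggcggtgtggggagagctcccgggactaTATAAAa
GGAATG was found in 5 of 9 (Myh6, Myh7, Nppb, Acta1 and Ankrd1) and in 12.6% of 32851 promoters of the same length. The CArG box was found in 3 of 9 (Actc1, Acta1 and Fhl1) and in 1.47% of all. Of the other motifs searched, on both strands, TATAAA was in 3 of 9 (12.4% of all), the MEF2 site in 1 (2.92%), the GATA motif GATAA in 2 (22.6%) and the NFAT core GGAAA in 4 (55.6%), the last not in capitals. A gene with several starts was counted where any of its promoters held the motif, while the share over all is per promoter. These are matches of letters, and the data hold no measurement of binding.

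The 11 libraries used held 22130323 to 46424614 counts on genes, of which 51.5% to 71.3% fell on the mitochondrial genome. WT_HFD replicate 3 was left out: the column name in its file is the one in the file of ApoeKO_CD replicate 1, it held 1347110 counts, and where a coding and a non-coding gene overlap on opposite strands (3832 such pairs), 68.5% of its counts fell on the non-coding one (95% Wilson interval 68.4% to 68.7%, counting error only), against 0.636% to 0.919% in the others. The knocked-out gene itself, Apoe, did not follow the genotype labels of the chow libraries. Its TMM-scaled CPM (counts in 1000000, the unit of all levels below unless named per kilobase) were 2.12 to 3.61 in WT_CD and 1.94 to 3.16 in ApoeKO_HFD, but 6.93 to 25.3 in ApoeKO_CD and 8.44 to 18.9 in WT_HFD. The group names therefore stand for the libraries labelled so, and the directions drawn from the chow libraries rest on labels that this gene does not bear out. Summed markers of working cardiomyocytes were 85564 to 99629 CPM in the 11 libraries with none of 10 markers at 0, and the ventricular light chain gene Myl2 was at 867.6 to 1592. The working cardiomyocyte markers include Myh6 and Actc1, and most of their sum was Ttn and Myh6. That sum is therefore not independent of the genes followed here. Summed atrial markers (12 genes) were 16.1, 37.2 and 26.3 CPM in WT_HFD replicate 2 and ApoeKO_HFD replicates 2 and 3 and 90.6 to 219.9 in the other 8 libraries. The atrial light chain gene Myl7 was at 0.0668, 0.261 and 0.601 in those 3 libraries and at 4.15 to 17.7 elsewhere. Macrophage, fibroblast, endothelial, skeletal muscle and the other marker lists, 12 in all, held 0 called genes in each comparison by edgeR, with at most 4 per list at an unadjusted p under 0.05. Of 7 skeletal muscle markers, which include no α-actin, all had log2 fold changes below 0 in ApoeKO_CD against WT_CD (median −1.16) and in WT_HFD against WT_CD (median −0.68), with summed levels of 343 to 582 CPM over the 11 libraries. Nearly all of that sum was Ckm, at 342 to 581 CPM. Myh1, Myh2, Myh4, Tnnt3, Actn3 and Mylpf were each at 1.015 CPM or less in every library. The part of the 7 skeletal muscle markers in the values of Acta1 was not tested.

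Adult isoforms stood far above the rest. Per kilobase of exon the median over 11 libraries was highest for Myh6, at 4323 CPM per kb, then Actc1 at 1466. Ankrd1 had 100.4, Nppb 80.5, Xirp2 73.5 and Acta1 73.0. Myh7 had 16.3, Rcan1 10.5, Ccn2 8.03 and Fhl1 6.07. From Ankrd1 downwards each gene overlapped its neighbour in this order in its range across libraries, whereas Myh6, Actc1 and the rest did not overlap. Myh6 exceeded Myh7, and Actc1 exceeded Acta1, in every library.

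The genes differed in how much they moved between libraries. The ratio of the highest to the lowest library was 6.38 for Acta1 and 5.62 for Myh7. It was 2.79 for Rcan1, 2.77 for Ankrd1, 2.52 for Ccn2 and 2.49 for Nppb. Xirp2 (1.81), Fhl1 (1.66), Actc1 (1.55) and Myh6 (1.45) were the steadiest. The lowest count behind any of these values was 485, for Ccn2, so counting error was small beside the spread between replicates.

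**Figure D1:**
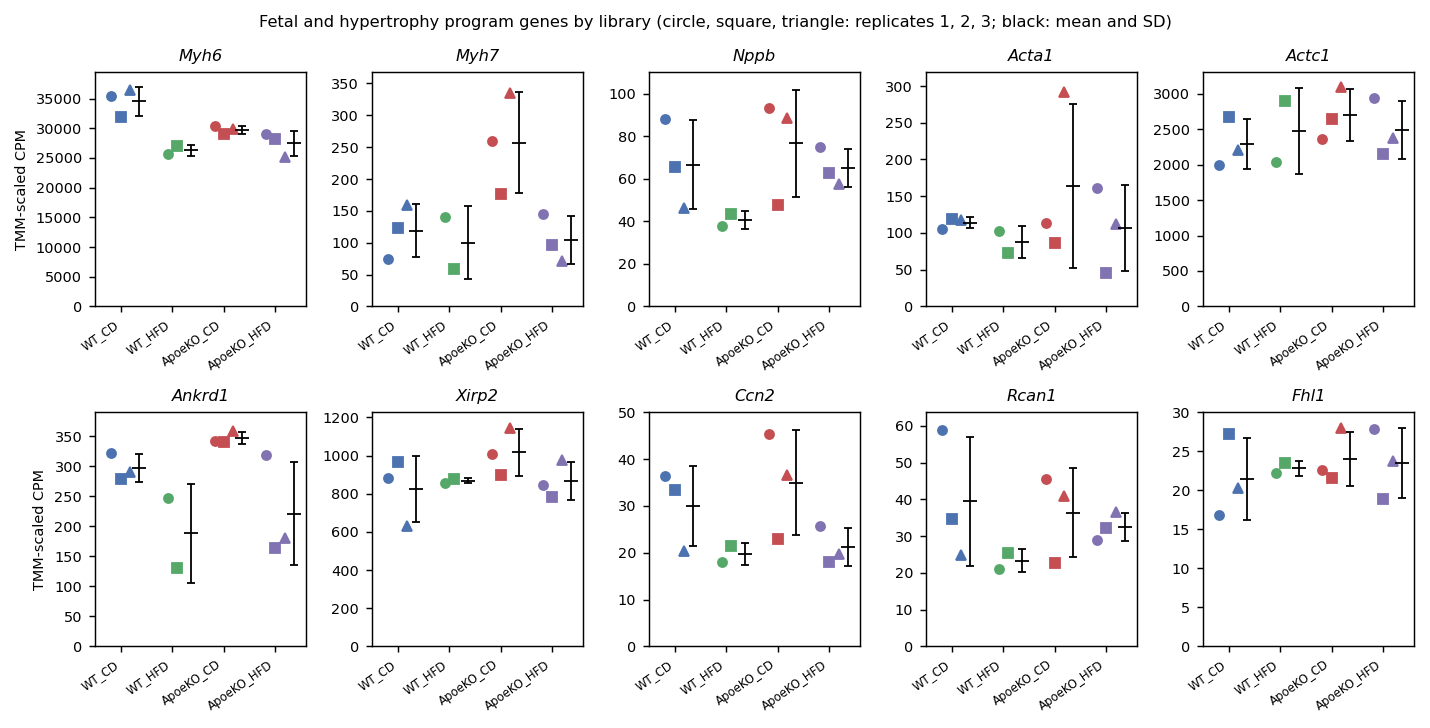
TMM-scaled CPM (vertical axes, linear and starting at 0) of the 10 genes in 11 libraries of 4 groups (horizontal axes), with symbols for replicates 1, 2 and 3 and the group mean and SD in black. Myh7 is highest in the 3 ApoeKO_CD libraries and Myh6 is lower in all other libraries than in the 3 of WT_CD.

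No gene of the 10 passed an adjusted p of 0.05 in any of 6 comparisons by edgeR's quasi-likelihood test with Benjamini-Hochberg adjustment over 16932 genes. DESeq2 and limma voom with sample weights also called 0 of 10 in each. Few genes were called at all by edgeR in the 11 libraries, but the number depended on single libraries. In ApoeKO_HFD against WT_CD it was 26, and 0 to 1304 with 1 library left out. In ApoeKO_CD against WT_CD it was 86, and 37 to 1801 with 1 library left out. With all 11 libraries 0.154% of all genes passed an adjusted p of 0.05 in ApoeKO_HFD against WT_CD, 0.0709% in ApoeKO_HFD against ApoeKO_CD and 0.207% in WT_HFD against WT_CD. The shares were 0.508% in ApoeKO_CD against WT_CD, 0.0472% in ApoeKO_HFD against WT_HFD and 0.219% in the interaction of diet with genotype. The values of the 10 genes below are differences that did not pass, given with their errors. No label ties a library to an animal, so p-values here speak of the spread between libraries, which may be technical, and in bulk RNA fewer cells of a type and less RNA per cell cannot be told apart.

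The first comparison put ApoeKO_HFD, with the knockout label and the high fat diet, against WT_CD, labelled with neither. Apoe itself differed little between these 2 groups, with a log2 fold change of −0.10 (SE 0.55). The genotype part of this comparison therefore rests on the labels. Myh6 was lower without overlap between groups, at 29077, 28189 and 25121 CPM against 35411, 31819 and 36486. The log2 fold change of Myh6 was −0.33 (SE 0.15, unadjusted p = 0.0454, adjusted p = 0.34, edgeR). It was the 1 gene of 10 with an unadjusted p under 0.05, a level that 14.2% of all genes reached, and the 1 whose groups did not overlap, against 15.6% of all genes. Of the 10 genes 7 lay below 0, against 50.7% of all genes, and their median was −0.14 beside −0.01 for all. The fitted values of the fetal isoforms and the peptide were small beside their errors: Myh7 had −0.19 (SE 0.41), Acta1 −0.09 (SE 0.55) and Nppb −0.04 (SE 0.24). With 1 library left out they ran from −0.50 to 0.071, −0.52 to 0.27 and −0.24 to 0.22 in that order. These errors cannot separate no change from a change in either direction. By DESeq2 2 genes had an unadjusted p under 0.05, and by limma voom 1.

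ApoeKO_HFD against ApoeKO_CD compares the diets under the knockout label. All 10 genes lay below 0, against 48.8% of all genes, with a median of −0.23 beside 0.01. The signs of Rcan1, Acta1 and Fhl1 turned when a single library was left out, reaching 0.030, 0.079 and 0.098. Myh7, the slow myosin, stood at 145, 96.7 and 71.7 CPM on the high fat diet and at 260, 176 and 334 on chow. The groups did not overlap, and the log2 fold change was −1.30 (SE 0.42, unadjusted p = 0.0121, adjusted p = 1, edgeR). With the atrial markers as a covariate it was −0.85.

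Ankrd1, a titin-bound repressor induced by stretch, was at 319, 163 and 181 CPM in ApoeKO_HFD against 343, 341 and 359 in ApoeKO_CD, again without overlap. Its log2 fold change was −0.65 (SE 0.24, unadjusted p = 0.0144, adjusted p = 1, edgeR), −0.32 with the atrial covariate and −1.01 without ApoeKO_HFD replicate 1. Ccn2, the matricellular growth factor, was at 25.7, 18.1 and 19.7 against 45.3, 23.0 and 36.6, and here 1 chow library lay below the highest high fat library. The difference for Ccn2 was −0.72 on the log2 scale (SE 0.24, unadjusted p = 0.00921, adjusted p = 1, edgeR). Without a filter on low counts Ccn2 was called at an adjusted p of 0.0157, and without ApoeKO_CD replicate 1 its log2 fold change was −0.49. Those 3 genes had an unadjusted p under 0.05, against 1.53% of all genes, and also by DESeq2 and limma voom 3 had. Groups did not overlap for 2 of 10, against 9.03% of all genes. Macrophage markers were lower too in ApoeKO_HFD: all 9 tested had a log2 fold change below 0, with summed levels of 8.55 to 11.997 CPM against 6.12 to 32.8. The part of these markers and of the atrial markers in the differences was not tested beyond the covariate fits.

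WT_HFD against WT_CD compares the diets under the wild-type label, with 2 libraries against 3. The median of the 10 genes was −0.39 beside −0.01 for all genes, and 7 of 10 lay below 0, against 51.3% of all. Nppb, which encodes the B-type natriuretic peptide, was at 37.6 and 43.6 CPM against 88.2, 65.3 and 46.4. Both high fat libraries lay under every chow library, with a log2 fold change of −0.71 (SE 0.28, unadjusted p = 0.0215, adjusted p = 0.3, edgeR). Without WT_CD replicate 1 that value was −0.46.

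Myh6 was at 25614 and 26984 CPM in WT_HFD, under all 3 WT_CD libraries, and differed by −0.39 on the log2 scale (SE 0.17, unadjusted p = 0.0362, adjusted p = 0.353 by edgeR and 0.053 by DESeq2). Ankrd1 was at 246 and 130 CPM against 322, 278 and 290, or −0.66 on the log2 scale (SE 0.27, unadjusted p = 0.0266, adjusted p = 0.321). That value rested on WT_HFD replicate 2, which also had the lowest atrial markers: it was −0.22 without that library and −1.14 without WT_HFD replicate 1, and −0.42 with the atrial covariate.

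Acta1 also lay lower without overlap, at 103 and 72.3 CPM against 105, 119 and 117, but its log2 fold change of −0.38 had an SE of 0.62 and was −0.60 without WT_HFD replicate 1 and −0.10 without WT_HFD replicate 2. For Rcan1 the value was −0.76 (SE 0.34) and for Ccn2 −0.61 (SE 0.27), both with overlapping groups and adjusted p-values of 0.376 and 0.37. Without WT_CD replicate 1 Rcan1 had −0.35. In all 5 of 10 genes had an unadjusted p under 0.05, against 12.9% of all genes, and 4 had groups that did not overlap, against 24.7%. By DESeq2 4 genes had such a p and by limma voom 1. Without WT_CD replicate 1, and likewise without WT_HFD replicate 2, 0 of the 10 had one by edgeR.

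ApoeKO_CD against WT_CD compares the genotype labels on chow. Myh7 was at 260, 176 and 334 CPM in ApoeKO_CD against 75.0, 123 and 159, so every library of one group lay above every library of the other. Its log2 fold change was 1.11 (SE 0.42, unadjusted p = 0.0252, adjusted p = 0.244, edgeR). With each library left out in turn it ran from 0.86 to 1.37, and with the atrial covariate it was 1.25 at an adjusted p of 0.0478, the 1 covariate fit that called it. Ankrd1 was higher without overlap as well, with a smaller log2 fold change of 0.23 (SE 0.24). Myh6 was lower without overlap, at 30333, 29043 and 29877 CPM, with −0.22 (SE 0.15).

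Those 3 of 10 stand beside 16.6% of all genes whose groups did not overlap. Myh7 was the 1 gene with an unadjusted p under 0.05, which 15.9% of all genes reached, while DESeq2 gave 2 such genes and limma voom 0. Of the 10 genes 2 lay below 0, against 51.3% of all, and their median was 0.22 beside −0.01. Acta1 had 0.53 (SE 0.55) and moved to −0.18 without ApoeKO_CD replicate 3. Xirp2, the actin-binding protein of the intercalated disc, had 0.30 (SE 0.16, adjusted p = 0.367), and 0.14 without WT_CD replicate 3.

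ApoeKO_HFD against WT_HFD compares the genotype labels on the high fat diet. Nppb was at 74.7, 62.8 and 57.5 CPM in ApoeKO_HFD against 37.6 and 43.6, with a log2 fold change of 0.68 (SE 0.28, unadjusted p = 0.0274, adjusted p = 1, edgeR). Rcan1 was at 28.9, 32.3 and 36.5 against 21.1 and 25.5, with 0.48 (SE 0.34). Groups did not overlap for these 2 of 10 genes, against 21.7% of all, and 0 of 10 lay below 0, against 48.1% of all, but 7 of these 10 signs (Myh7, Acta1, Actc1, Ankrd1, Xirp2, Ccn2 and Fhl1) turned when a single library was left out. The median was 0.08 beside 0.01. Nppb alone had an unadjusted p under 0.05, against 2.83% of all genes, and by DESeq2 1 gene and by limma voom 0 had one.

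The interaction asks whether the diet difference depended on the genotype label. Myh7 had the largest value, −1.05 (SE 0.61, unadjusted p = 0.122, adjusted p = 0.682, edgeR): its diet difference was −1.30 under the knockout label and −0.25 under the wild-type label. The value of Myh7 was −0.34 without WT_HFD replicate 1 and −1.58 without WT_HFD replicate 2. Rcan1 had 0.60 (SE 0.45), which became 0.19 without WT_CD replicate 1 and 0.34 without ApoeKO_CD replicate 2. Nppb had 0.48 (SE 0.37), and 0.23 without either of those libraries. None of the 10 genes had an unadjusted p under 0.05 by edgeR, DESeq2 or limma voom, against 8.2% of all genes by edgeR. Of the 10 genes 6 lay below 0, against 48.5% of all, with a median of −0.12 beside 0.02. These comparisons share libraries, so their values are not independent of each other.

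**Figure D2:**
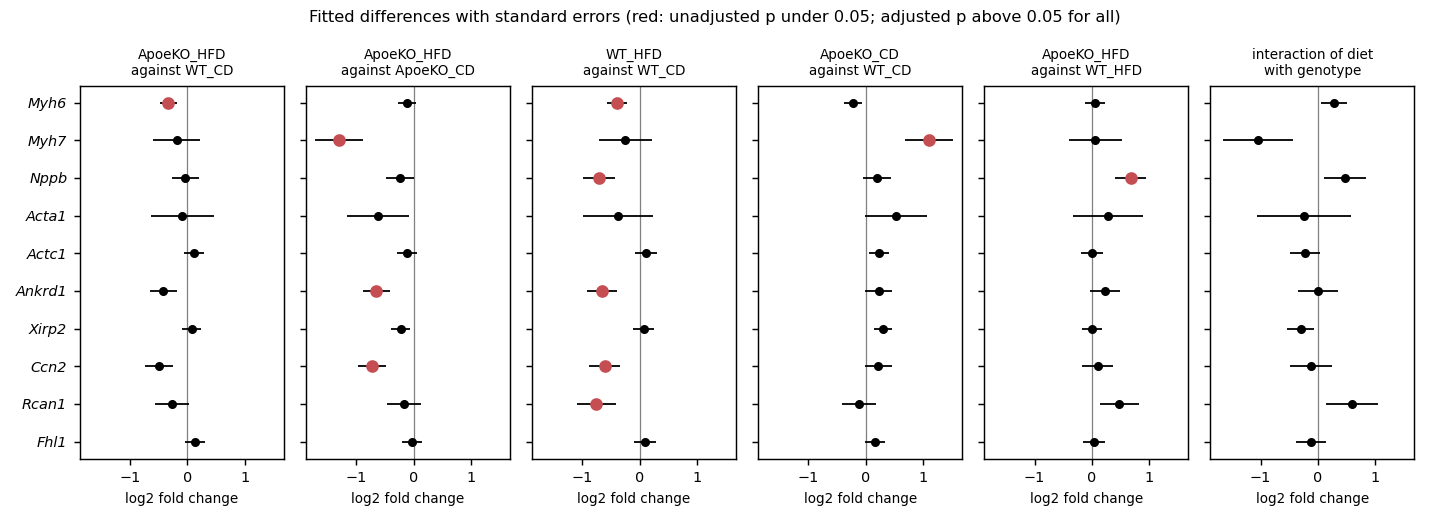
Fitted log2 fold change (horizontal axes) with its standard error for each of the 10 genes (vertical axis) in the 5 comparisons of groups and the interaction, red where the unadjusted p was under 0.05. Myh7 has the largest differences, 1.11 in ApoeKO_CD against WT_CD and −1.30 in ApoeKO_HFD against ApoeKO_CD, and no adjusted p passed 0.05.

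Isoform balance was read from pairs within each library, which removes the scaling between libraries. Myh7 per kb was 0.165%, 0.302% and 0.340% of Myh6 per kb in WT_CD and 0.427% and 0.172% in WT_HFD. It was 0.669%, 0.474% and 0.874% in ApoeKO_CD and 0.388%, 0.268% and 0.223% in ApoeKO_HFD. Every ApoeKO_CD library lay above all 8 others, and the remaining groups overlapped. The ratio in ApoeKO_CD was 2.53-fold that in WT_CD (log2 difference 1.34) and 2.29-fold that in ApoeKO_HFD. Each comparison had an exact two-sided permutation p of 0.1, the smallest that 3 libraries against 3 allow, and 0.5 after adjustment over 10 tests.

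The union of annotated exons is 8616 bases for Myh7, longer than its mRNA of 6135, whereas Myh6 has 6726 against 6113, so the percentages for Myh7 are lower than mRNA length would give. Acta1 per kb was 5.54%, 4.67% and 5.61% of Actc1 in WT_CD, 5.30% and 2.62% in WT_HFD, 5.04%, 3.45% and 9.94% in ApoeKO_CD and 5.78%, 2.24% and 4.98% in ApoeKO_HFD. All groups overlapped for the actins, and the 5 exact permutation p-values ran from 0.2 to 0.9. The high value of 9.94% came from ApoeKO_CD replicate 3 alone.

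**Figure D3:**
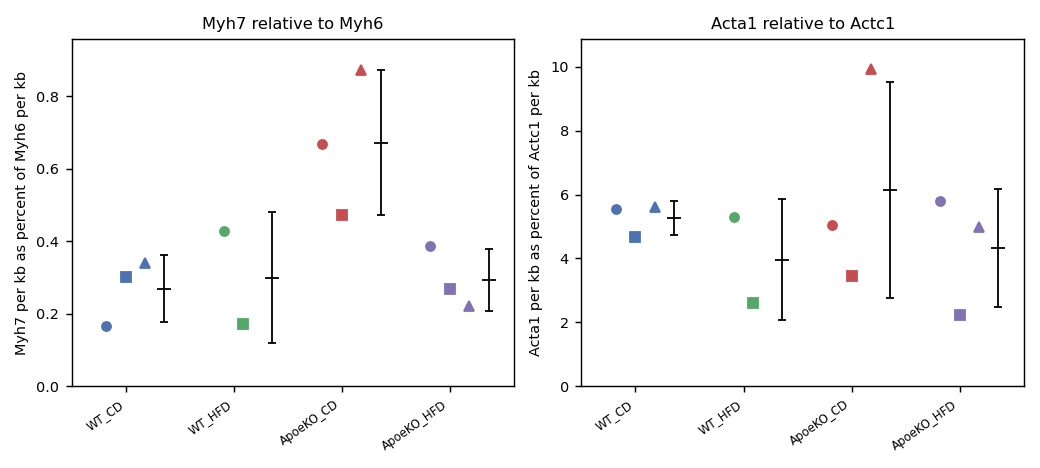
Myh7 per kb as a percentage of Myh6 per kb (left) and Acta1 per kb as a percentage of Actc1 per kb (right) in each of 11 libraries, with group means and SDs in black and symbols for the replicates. The 3 ApoeKO_CD libraries, at 0.474% to 0.874%, lie above the others for the myosins, and ApoeKO_CD replicate 3 stands apart for the actins.

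Long non-coding RNAs run antisense to Myh7, and the stranded counts separate them from it. Mhrt (chr14:54968678-54974349), known as a cardioprotective antisense transcript of this locus, was at 60.2 to 149 CPM, and Gm31251 (chr14:54979393-54991601) at 44.6 to 114. A shorter one, Gm29015 (chr14:54973029-54973359), was at 3.34 to 9.89. In ApoeKO_CD, where Myh7 was highest, Mhrt was at 85.7, 82.5 and 62.3 CPM, against 122, 60.2 and 149 in WT_CD. Its log2 fold change was −0.52 (SE 0.25, adjusted p = 0.329, edgeR), opposite in sign to that of Myh7, with overlapping groups. Against ApoeKO_HFD the difference was 0.04 (SE 0.25), stated as ApoeKO_HFD minus ApoeKO_CD. The library with the highest Myh7, ApoeKO_CD replicate 3 at 334 CPM, had the lowest Mhrt but for WT_CD replicate 2, and the lowest Myh7 library, WT_HFD replicate 2 at 59.5, had 67.7 CPM of Mhrt, the next above it.

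Single libraries shaped much of the pattern. ApoeKO_CD replicate 3 had the highest value of 6 of the 10 genes (Myh7, Acta1, Actc1, Ankrd1, Xirp2 and Fhl1) and was among the 3 highest for 9. It also had the lowest mitochondrial share of the 11 (51.5%), the lowest summed fibroblast markers (9.23 CPM) and low macrophage markers (6.12 CPM). Acta1 was at 292 CPM in that library and at 113 and 86.7 in its group mates. The part of these features in the values was not tested. Actc1, Xirp2 and Fhl1, the steadiest genes after Myh6, peaked there at 3090, 1145 and 28.0 CPM.

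Nppb, Ccn2 and Rcan1 had the same 3 highest libraries, WT_CD replicate 1 and ApoeKO_CD replicates 1 and 3. In them Nppb was at 88.2, 93.4 and 88.6 CPM, Ccn2 at 36.4, 45.3 and 36.6, and Rcan1 at 58.8, 45.5 and 41.0. Those libraries cross the genotype labels within chow, so the chow groups overlapped for all 3 genes. WT_HFD replicate 1 had the lowest value of each, at 37.6, 17.999 and 21.1.

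Ankrd1 split the libraries in another way. Its 3 lowest libraries, WT_HFD replicate 2 (130 CPM) and ApoeKO_HFD replicates 2 and 3 (163 and 181), are the 3 with the lowest atrial markers, and all 8 others lay between 246 and 359. Nppa, the atrial natriuretic peptide gene, was at 6.48, 23.4 and 14.8 CPM in those 3 libraries and at 41.1 to 107 in the others. Nppa and Myl7 are among the 12 atrial markers that set the 3 libraries apart, so their low levels there are not separate observations. All 3 are high fat libraries, while WT_HFD replicate 1 and ApoeKO_HFD replicate 1, with Myl7 at 14.8 and 4.57, had Ankrd1 at 246 and 319. Myh7 was also low in the 3, at 59.5, 96.7 and 71.7, but WT_CD replicate 1 had 75.0 with Myl7 at 7.65. Nppb showed no such split, with 43.6, 62.8 and 57.5 in the 3 libraries inside the range of 37.6 to 93.4 elsewhere.

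**Figure D4:**
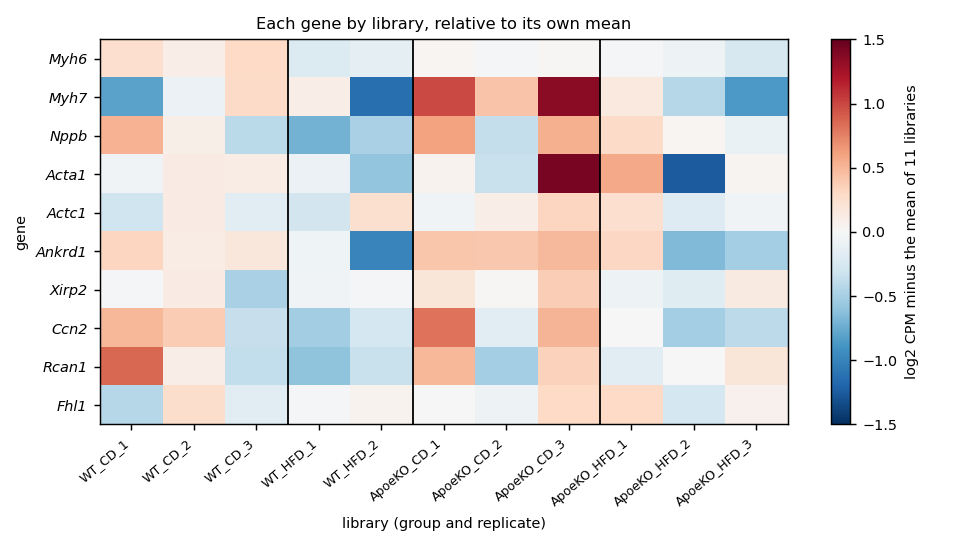
Log2 CPM of each gene (rows) in each of 11 libraries (columns, black lines between groups) minus the mean of that gene over the libraries, red higher and blue lower. ApoeKO_CD replicate 3 is the column with the highest value for 6 of 10 genes, and Myh7 and Acta1 have the widest range.

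**Figure D5:**
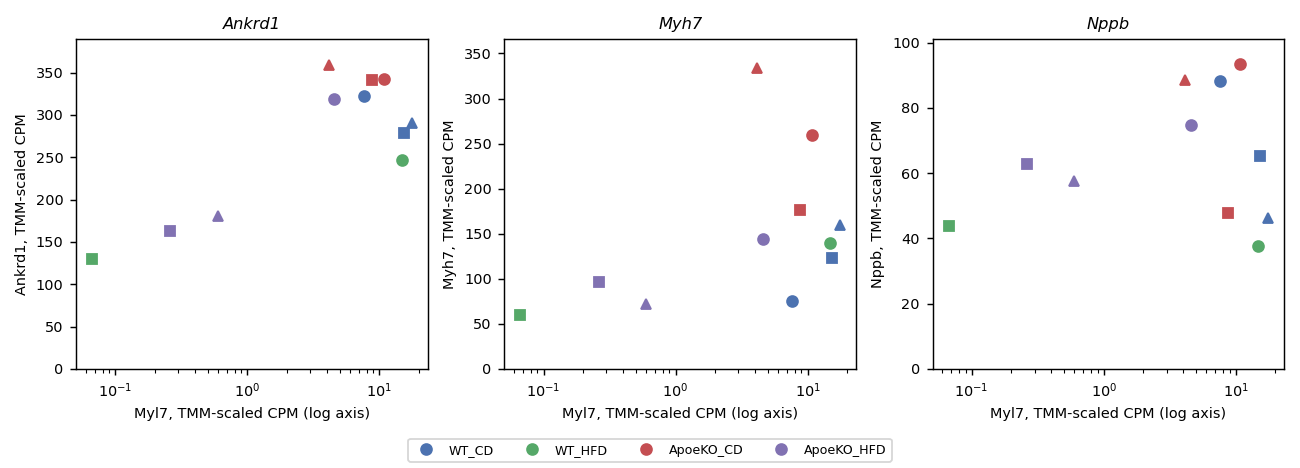
Ankrd1, Myh7 and Nppb (vertical axes, TMM-scaled CPM, linear from 0) against the atrial marker Myl7 (horizontal axes, TMM-scaled CPM, logarithmic) in 11 libraries coloured by group, with circle, square and triangle for replicates 1, 2 and 3. The 3 libraries with Myl7 under 1 CPM have Ankrd1 at 130 to 181, and the other 8 at 246 to 359.

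Genes around the program were read through 8 lists of the pathway, of which 1 gene was called in any comparison. Ankrd23, an ankyrin repeat protein of the same stretch-sensor family as Ankrd1 (chr1:36530188-36536883), was at 11.6, 11.4 and 10.5 CPM in WT_CD. It was at 2.36 and 3.52 in WT_HFD, 3.88, 1.27 and 4.70 in ApoeKO_CD and 3.92, 4.29 and 3.71 in ApoeKO_HFD. Every library outside WT_CD had less than 0.5 times the lowest WT_CD value. Ankrd23 fell in WT_HFD against WT_CD, with −1.92 (SE 0.35, adjusted p = 0.0313), and in ApoeKO_CD against WT_CD, with −1.73 (SE 0.30, adjusted p = 0.0124, edgeR). Its value in ApoeKO_HFD against WT_CD was −1.49 (SE 0.30, adjusted p = 0.0579). It was called there without WT_CD replicate 2 (0.0306), ApoeKO_CD replicate 2 (0.00369) or ApoeKO_CD replicate 3 (0.0456), by DESeq2 (0.000509), with RLE factors (0.0487), without a filter (2.69e-08), with the filter at 50 counts (0.049), with only the groups compared (0.00304) and with the non-myocyte covariate (0.0416). Leaving out any other library gave no call there (adjusted p 0.0617 to 0.279, edgeR). Without ApoeKO_HFD replicate 1, 2 or 3 the adjusted p was 0.151, 0.241 or 0.279.

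The call of Ankrd23 in WT_HFD was lost under limma voom (adjusted p = 0.0971), with the replicate block (0.102), with all 12 libraries (0.393) and on leaving out WT_CD replicate 1 or 3, either WT_HFD library or any ApoeKO_HFD library (0.0546 to 0.517). That in ApoeKO_CD was lost under limma voom (0.0656), with all 12 libraries (0.465) and without WT_CD replicate 3 (0.0601). DESeq2 called both, at 1.63e-05 and 5.52e-06. Ankrd1 itself had −0.66 in WT_HFD, −0.42 in ApoeKO_HFD and 0.23 in ApoeKO_CD against WT_CD, and none of these passed the test. Of the 13 stretch and Z-disc genes tested, 1 was called in WT_HFD against WT_CD and 1 in ApoeKO_CD against WT_CD. The shares of all genes called there were 0.207% and 0.508%. In the other comparisons, ApoeKO_HFD against WT_CD among them, 0 of the 13 were called.

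Other fetal and hypertrophy genes (17 of 20 tested, several of them atrial markers) had 0 called in all 6 comparisons, with 1 or 2 at an unadjusted p under 0.05 in ApoeKO_HFD against WT_CD and WT_HFD against WT_CD and 0 in the rest. Myh7b, the ancient slow myosin that hosts miR-499, had −0.77 (SE 0.25, adjusted p = 0.24) in WT_HFD against WT_CD and Des, the intermediate filament desmin, −0.37 (SE 0.15, adjusted p = 0.325). In natriuretic peptide processing and reception (11 of 12 tested) 0 were called, and 0 or 1 had an unadjusted p under 0.05 in each comparison. Npr1, the guanylyl cyclase receptor of both cardiac peptides, had −1.12 (SE 0.35, adjusted p = 0.143) in ApoeKO_CD against WT_CD, and Corin, the protease that cleaves pro-ANP, 0.34 (SE 0.16, adjusted p = 0.316). In that comparison all 8 endothelial markers lay below 0 (median −0.61, 0 called, 4 at an unadjusted p under 0.05), with summed levels of 56.6 to 75.7 CPM in ApoeKO_CD against 58.3 to 136 in WT_CD. Of 9 macrophage markers 2 lay below 0 (median 0.77, 0 called), with summed levels of 6.12 to 32.8 CPM against 10.8 to 19.99. Their part in the values of Npr1 and of Igf1, given below, was not tested.

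Of the 15 calcineurin and NFAT genes, the pathway that Rcan1 reports on, 0 were called, while 3, 4 and 3 had an unadjusted p under 0.05 and lay higher in ApoeKO_HFD, WT_HFD and ApoeKO_CD against WT_CD. All genes reached that p, in either direction, in 14.2%, 12.9% and 15.9% of cases there, in 1.53% and 2.83% in ApoeKO_HFD against ApoeKO_CD and WT_HFD, and in 8.2% in the interaction, and the counts of all lists stand beside these shares. Ppp3cc, a catalytic subunit of calcineurin, was at 4.77 to 6.28 CPM in WT_CD and at 6.85 to 9.59 in all other libraries. Its log2 fold change was 0.75 (SE 0.16, adjusted p = 0.0694) in ApoeKO_HFD against WT_CD and 0.69 (SE 0.16, adjusted p = 0.0628) in ApoeKO_CD against WT_CD. Rcan1 had −0.28 and −0.11 in the same comparisons.

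Of the 16 YAP and TEAD genes 0 were called, with 1 to 4 at an unadjusted p under 0.05 in each comparison. Ccn1, the sister gene of Ccn2 and like it a YAP target, was at 143 to 163 CPM in WT_CD and at 116, 74.2 and 81.6 in ApoeKO_HFD, with −0.78 (SE 0.19, adjusted p = 0.105). Ccn2 had −0.50 (SE 0.24, adjusted p = 0.366) there. Arhgef17 had 0.51 (SE 0.13, adjusted p = 0.0804) in ApoeKO_CD against WT_CD and the TEAD factor gene Tead1 0.29 (SE 0.13, adjusted p = 0.302).

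Of the 20 transcription factors and repressors of the program 0 were called, with 0 to 6 at an unadjusted p under 0.05. Mef2a, a MADS-box activator of muscle genes, was at 60.1, 86.8 and 66.6 CPM in WT_CD, at 112 and 111 in WT_HFD and at 104, 92.0 and 110 in ApoeKO_CD. Against WT_CD it had 0.65 (SE 0.16, adjusted p = 0.112) in WT_HFD and 0.52 (SE 0.14, adjusted p = 0.0947) in ApoeKO_CD. Hdac5, a class IIa deacetylase that represses MEF2, had −0.52 (SE 0.15, adjusted p = 0.165) in ApoeKO_HFD against WT_CD. The thyroid hormone list (12 of 14 tested), which covers the receptors that switch Myh6 on and Myh7 off, had 0 called and 0 to 2 at an unadjusted p under 0.05. The receptor gene Thrb had −0.45 (SE 0.21, adjusted p = 0.598) in the interaction. Upstream ligands and receptors (20 of 21 tested) had 0 called and 0 to 5 at an unadjusted p under 0.05, with Igf1 at 1.47 (SE 0.50, adjusted p = 0.174) and the angiotensin receptor gene Agtr1a at 0.64 (SE 0.22, adjusted p = 0.181) in ApoeKO_CD against WT_CD.

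For the 3 genes with the largest SD of log2 CPM over the libraries (Myh7 0.77, Acta1 0.66 and Ankrd1 0.50) the closest profiles among 4816 other protein-coding genes were found by the root mean square difference of centred log2 CPM over 11 libraries. Closest to Myh7 were Mybpc2 (0.50), the fast isoform of myosin-binding protein C, Myot (0.52), the Z-disc protein myotilin, and Sorl1 (0.52). Closest to Acta1 were Myot (0.36), Gnao1 (0.42) and Igfbp5 (0.43). Myot was at 49.5 CPM in ApoeKO_CD replicate 3 and at 20.04 to 34.99 elsewhere, so the library that was highest for Myh7 and Acta1 was highest for it too. Closest to Ankrd1 were Slc3a2 (0.32), Tent5a (0.33) and Arid5a (0.33). A profile that did not vary at all would score nearly the SD of the gene itself, given above. The SDs of the closest genes ran from 0.22 (Slc3a2) to 0.47 (Arid5a), each below that of the gene they were matched to. Arid5a, like Ankrd1, was lowest in the 3 libraries low in atrial markers, at 6.72, 4.66 and 4.43 CPM against 7.55 to 12.1. Myot and Arid5a were picked for their likeness over these same 11 libraries. Their shared highest or lowest libraries therefore follow from that choice and are not separate observations.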

How the data were processed

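RNA of mouse cardiomyocytes was measured in 12 libraries made with a SMART-Seq stranded kit, per the labels' protocols. HTSeq 0.13.5, STAR 2.7a and Trimmomatic 0.39 are the tools, and GRCm38 (mm10) the build, per the submitters' processing notes. The deposited files hold the authors' whole-number counts per gene, not normalized. The annotation used for counting is not given in the sources used here. GENCODE M21 gave a symbol to 55154 of 55335 identifiers.

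From these counts, edgeR 4.0.16 in R 4.3.3 fitted 11 libraries in 1 model of 4 groups (TMM factors, filterByExpr, robust quasi-likelihood test, 16932 genes, 7 residual degrees of freedom), with two-sided p-values adjusted by Benjamini-Hochberg over all genes. WT_HFD replicate 3 was left out by the rule that defines the set. CPM is counts divided by the TMM-scaled total of the genes tested, mitochondrial ones included, and per-kilobase values use the union of exons. The fit was tested on simulated data. Ratios were compared by exact permutation tests in scipy 1.17.1. The 10 genes, the 8 pathway lists and the 12 marker lists were chosen with earlier results of these data known. Named genes are the 10, every called gene of a list or else up to 2 with the smallest p, the 3 closest profiles of the 3 most variable genes, and Apoe; Mhrt, Gm31251, Myh7b and genes described by library were picked after their values were seen.

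Replicates differed by more than sampling noise (chi-square per degree of freedom 24.55 to 189.7), so none was counted as a duplicate. Same-numbered libraries did not deviate together: 1 of 15 pairs had a correlation above 0.1 (range −0.18 to 0.19), and no label ties same-numbered samples together. Alternatives were RLE factors, TMM without mitochondrial genes, no filter or 50 counts in 3 libraries, only the groups compared, all 12 libraries, a replicate block, covariates of atrial or non-myocyte markers, limma 3.58.1 voom with sample weights, DESeq2 1.42.0 and each library left out.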

Additional observations from a re-analysis of the deposited data

Results flagged for a closer look

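WT_HFD replicate 3 was not used in the comparisons, and Myh7 and Ccn2 stood above the WT_CD range in it. Myh7 was at 5789 plain CPM (7799 counts) against 75.0 to 152 in WT_CD, with 8864 counts on Myh6 in the same library. Ccn2 was at 39.3 plain CPM (53 counts) against 19.4 to 36.4. In that library 68.5% of the counts on opposite-strand pairs were on the non-coding gene, so its values measure mostly the strand opposite to the genes. The column name inside its file is that of ApoeKO_CD replicate 1, so which sample the values belong to is uncertain.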

How the results depend on the processing

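The 10 genes gave 60 values over 6 comparisons. Under the alternatives that keep all replicates, 622 of 660 values kept their sign and stayed uncalled, 36 changed sign and 2 became called: Ccn2 without a filter (adjusted p = 0.0157) and Myh7 with the atrial covariate (adjusted p = 0.0478), so that 1 of the 10 genes was called in each of those fits, in ApoeKO_HFD against ApoeKO_CD and in ApoeKO_CD against WT_CD. With each library left out in turn 608 of 660 kept their sign, 52 changed it and 0 were called. The cause of these changes was not tested.

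Changed signs in ApoeKO_HFD against WT_CD were Nppb 0.050 without a filter and, with the atrial covariate, Myh7 0.40 and Acta1 0.18. In ApoeKO_HFD against ApoeKO_CD the atrial covariate gave Fhl1 0.029. In WT_HFD against WT_CD all 12 libraries gave Myh7 3.64, Actc1 −0.15, Xirp2 −0.37 and Fhl1 −0.32, and the atrial covariate gave Myh7 0.064. In ApoeKO_HFD against WT_HFD all 12 libraries gave Myh7 −3.84, Ccn2 −0.093 and a Myh7 to Myh6 log2 ratio difference of −2.59, and TMM without mitochondrial genes gave Actc1 −0.014 and Xirp2 −0.020. There, no filter gave Actc1 −0.029 and Xirp2 −0.038, only the groups compared gave Xirp2 −0.0033, DESeq2 gave Xirp2 −0.0047, and the atrial covariate gave Actc1 −0.00026 and Xirp2 −0.0080. The non-myocyte covariate gave Myh7 −0.12, Actc1 −0.080, Xirp2 −0.013 and Fhl1 −0.046, and limma voom gave Acta1 −0.14, Actc1 −0.052, Xirp2 −0.014 and Fhl1 −0.049. In the interaction all 12 libraries gave Acta1 0.25, Actc1 0.030, Xirp2 0.14 and Fhl1 0.28, while Ankrd1 had −0.022 by TMM without mitochondrial genes, −0.10 without a filter and −0.12 by limma voom.

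The replicate block changed no call of the 10 genes. In ApoeKO_HFD against WT_HFD it gave Acta1 −0.0048, Xirp2 −0.0042 and, from differences within same-numbered libraries, an Acta1 to Actc1 log2 ratio difference of −0.050. The block gave 14 called genes over the whole table in ApoeKO_HFD against WT_CD and 19 in WT_HFD against WT_CD.

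Counts of genes called over the whole table depended more on the setting. In ApoeKO_HFD against WT_CD 26 became 0 with all 12 libraries (576 at an unadjusted p under 0.05), 296 without a filter, 12 with only the groups compared, 1 with the atrial covariate and 168 by DESeq2. In ApoeKO_HFD against ApoeKO_CD 12 became 1 with all 12 libraries, 26 without a filter and 23 by limma voom. In WT_HFD against WT_CD 35 became 1 with all 12 libraries, 272 without a filter, 9 with only the groups compared, 21 with the atrial covariate and 132 by DESeq2. In ApoeKO_CD against WT_CD 86 became 3 with all 12 libraries, 475 without a filter, 38 with only the groups compared and 390 by DESeq2. In ApoeKO_HFD against WT_HFD 8 became 1 with all 12 libraries, 49 without a filter, 24 with only the groups compared, 39 by limma voom and 24 by DESeq2. For the interaction 37 became 8 with all 12 libraries, 105 without a filter, 72 by limma voom and 70 by DESeq2. With 1 library left out the counts ran from 0 to 1304, 6 to 14, 4 to 1019, 37 to 1801, 4 to 20 and 20 to 285 in the same order, and WT_CD replicate 2 gave the highest in each. The Myh7 to Myh6 log2 ratio difference then ran from −0.17 to 0.35 in ApoeKO_HFD against WT_CD, −1.42 to −0.98 in ApoeKO_HFD against ApoeKO_CD, −0.58 to 0.73 in WT_HFD against WT_CD, 1.02 to 1.57 in ApoeKO_CD against WT_CD and −0.58 to 0.73 in ApoeKO_HFD against WT_HFD. For Acta1 to Actc1 it ran from −0.65 to 0.03, −0.82 to −0.05, −1.003 to 0.012, −0.33 to 0.43 and −0.40 to 0.61.

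With 1 library left out in turn, log2 fold changes that crossed 0 spanned these ranges. In ApoeKO_HFD against WT_CD they ran for Nppb from −0.24 to 0.22, Rcan1 from −0.52 to 0.13, Fhl1 from −0.015 to 0.35, Myh7 from −0.50 to 0.071, Xirp2 from −0.090 to 0.20, Actc1 from −0.016 to 0.24 and Acta1 from −0.52 to 0.27. In ApoeKO_HFD against ApoeKO_CD they ran for Rcan1 from −0.41 to 0.030, Ankrd23 from −0.11 to 0.58, Acta1 from −1.05 to 0.079 and Fhl1 from −0.17 to 0.098. In WT_HFD against WT_CD they ran for Fhl1 from −0.062 to 0.30, Myh7 from −0.95 to 0.28, Xirp2 from −0.092 to 0.20 and Actc1 from −0.12 to 0.39. In ApoeKO_CD against WT_CD they ran for Rcan1 from −0.36 to 0.29, Nppb from −0.0053 to 0.46, Ccn2 from −0.014 to 0.45 and Acta1 from −0.18 to 0.84. In ApoeKO_HFD against WT_HFD they ran for Actc1 from −0.23 to 0.28, Xirp2 from −0.10 to 0.070, Ccn2 from −0.058 to 0.23, Fhl1 from −0.091 to 0.18, Myh7 from −0.43 to 0.80, Ankrd1 from −0.16 to 0.76 and Acta1 from −0.14 to 0.65. In the interaction of diet with genotype they ran for Ankrd1 from −0.42 to 0.50, Fhl1 from −0.33 to 0.029, Ccn2 from −0.35 to 0.12, Actc1 from −0.50 to 0.0075 and Acta1 from −0.67 to 0.45.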
